A study of Danio rerio with 14 samples.

Results

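The genes described here code for the extracellular matrix of the zebrafish eye: collagens and the enzymes that modify them, proteoglycans, laminins and a nidogen of basement membranes, adhesive glycoproteins, elastic fibre proteins and inhibitors of metalloproteinases. They were taken by gene symbol alone, from a list of symbol stems (col with a digit, lama, lamb and lamc, fn1, kera, lum, dcn, bgn, fmod, ogn, prelp, sparc, postn, tnc, thbs, fbn, fbln, nid, hspg2, eln, lox, plod, p4ha, serpinh1, vcan, acan, matn and timp). The rule uses no measured value, but it was chosen with earlier results of these data known. The rule found 99 of 16913 probes, which belonged to 60 of 8446 genes. Of 148 protein-coding genes in the zebrafish annotation whose current symbol fits the rule, 59 were measured, and 1 further member, efemp2b, was found through its platform symbol fbln4. Genes with no probe in the table are not described here, and whether they had probes before spots near background were removed was not examined. In 30 of the 60 members several probes were averaged.

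The eyes came from wild-type AB zebrafish larvae in 4 groups of 3 RNA extracts, and each extract pooled the eyes of 10 larvae. Control larvae were sampled at 5 and at 8 days post fertilization (dpf). The other larvae were kept from fertilization to 5 dpf in 350 mg/L propylthiouracil (PTU), a drug that blocks the synthesis of thyroid hormone. They were sampled either at 5 dpf or at 8 dpf after 3 days in clean water. The 12 extracts were hybridised in pairs on 14 two-colour Agilent arrays, so that values are log2 ratios between extracts, from which levels relative to the mean of the control extracts of 5 dpf were derived. Whole eyeballs were extracted, and in such bulk samples fewer cells of a type and less RNA per cell cannot be told apart. In what follows, a gene rose or fell only where limma gave a Benjamini-Hochberg adjusted p under 0.05 over all 8446 genes, and values after ± are standard errors of the model over all arrays.

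The extracellular matrix is the secreted scaffold around cells. In the eye, stacked fibrils of collagens I and V, spaced by small leucine-rich proteoglycans such as keratocan, lumican and decorin, give the cornea its transparency and the sclera its strength, the vitreous and the scleral cartilage hold collagens II, IX and XI, and the basement membranes of lens, retina and vessels are built of laminins, collagen IV and nidogen. Fibronectin and the matricellular proteins of the sparc, periostin, thrombospondin and tenascin families bind to this scaffold and to cells during growth and repair. Which tissue of the eye a ratio came from could not be checked, because ratios carry no level of one gene against another. Of markers of fibroblasts and keratocytes 8 of 19 listed were in the table, and of vascular endothelium 11 of 25.

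The extracts of a group did not all match each other in these genes. Among the control extracts of 5 dpf, 39 of the 60 members were highest in replicate 2 and 43 were lowest in replicate 3, and the mean level over the members was 0.18 and -0.22 in these extracts. Markers of skeletal muscle moved in the same extracts (mean over 19 genes 0.82 in replicate 2 and -0.86 in replicate 3), as did 8 cartilage markers outside the rule (0.36 and -0.35). Among the PTU extracts of 8 dpf, 51 of 60 members were highest in replicate 1, where the mean over members was 0.02 against -0.30 and -0.24 in the others, and where muscle markers averaged 0.16 against -0.63 and -0.64 and retina and lens markers -1.17 against -0.66 and -0.67. The mean over all genes lay between -0.04 and 0.02 in every extract. The part of other tissues in the results was not tested; the counts that rest on these extracts are given with and without them.

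**Figure D1:**
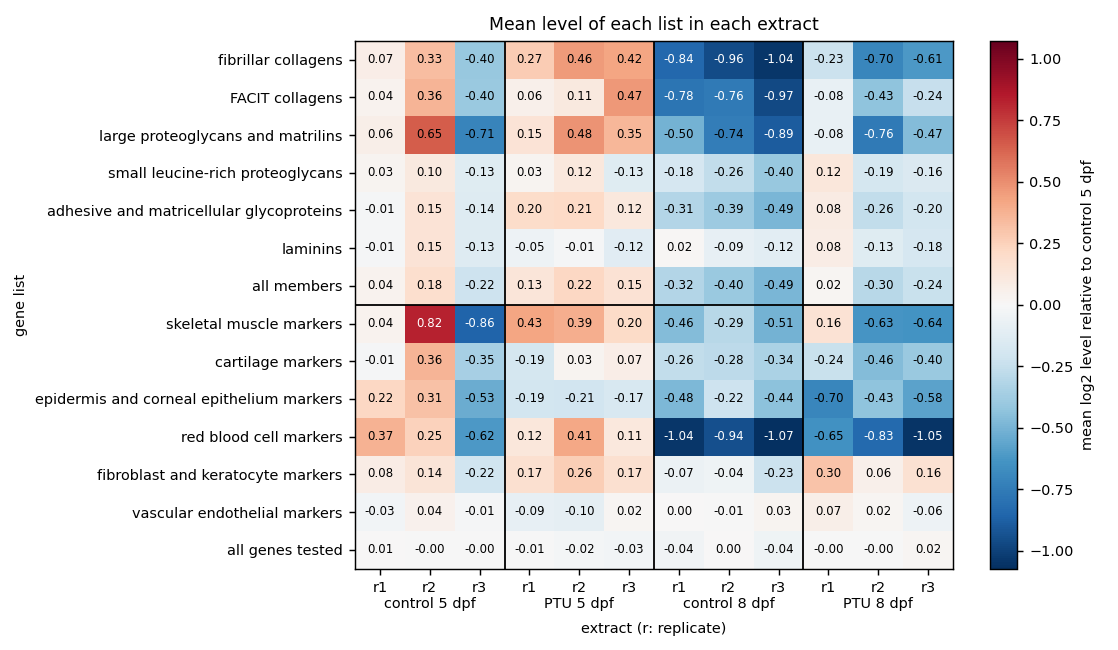
Mean log2 level, relative to the mean of control 5 dpf, of gene lists (vertical axis) in each of the 12 extracts (horizontal axis, replicates r1 to r3 by group), with lists of extracellular matrix members above the line and marker lists and all genes below it. Fibrillar collagens ranged from -0.40 to 0.33 among the control extracts of 5 dpf and from -1.04 to -0.84 among those of 8 dpf.

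At 5 dpf, at the end of exposure, more of the matrix genes were higher in PTU-exposed eyes than lower, and the largest changes went both ways: the fibronectin gene fn1b was 4.47-fold higher, and the matricellular gene sparcl1 3.52-fold and the keratocan gene kera 2.53-fold lower. Of the 60 members 22 rose (36.7%), where 24.2% of all genes rose, and 8 fell (13.3%), where 22.8% of all genes fell. The median log2 ratio of PTU over control was 0.23 over the members and -0.00 over all genes. The 3 PTU extracts all lay above the 3 control extracts for 19 members (31.7%) and all below them for 8 members (13.3%), against 26.9% and 25.1% of all genes. At the thresholds used by the study for single transcripts, an adjusted p under 0.05 with an absolute log2 ratio over 0.75 (1.68-fold), 6 of the 99 member transcripts (6.06%) were higher and 4 (4.04%) were lower, against 3.93% and 4.88% of all 16913 transcripts. Leaving out control replicate 1 of 5 dpf left 13 rises (21.7%) and 5 falls (8.33%), where 16% of all genes then rose and 14.9% fell. Leaving out control replicate 3 left 15 rises (25%) with a median of 0.09, where 19.7% of all genes rose. Leaving out control replicate 2 gave 30 rises (50%), where 20.9% of all genes rose.

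At 8 dpf, after recovery, 24 members (40%) rose in PTU eyes, where 19.6% of all genes rose, and 3 (5%) fell, where 13.2% of all genes fell. The median ratio was 0.22 over the members and 0.01 over all genes. The groups did not overlap for 20 members (33.3%) that were higher and for 2 (3.33%) that were lower in PTU eyes, against 20.6% and 14.7% of all genes. Of the 99 member transcripts, 17 (17.2%) were past the study's thresholds as higher and 1 (1.01%) as lower, against 3.83% and 2.57% of all transcripts. Without PTU replicate 1 of 8 dpf, 13 members (21.7%) rose, the median was 0.13 and 19.2% of all genes rose.

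**Figure D2:**
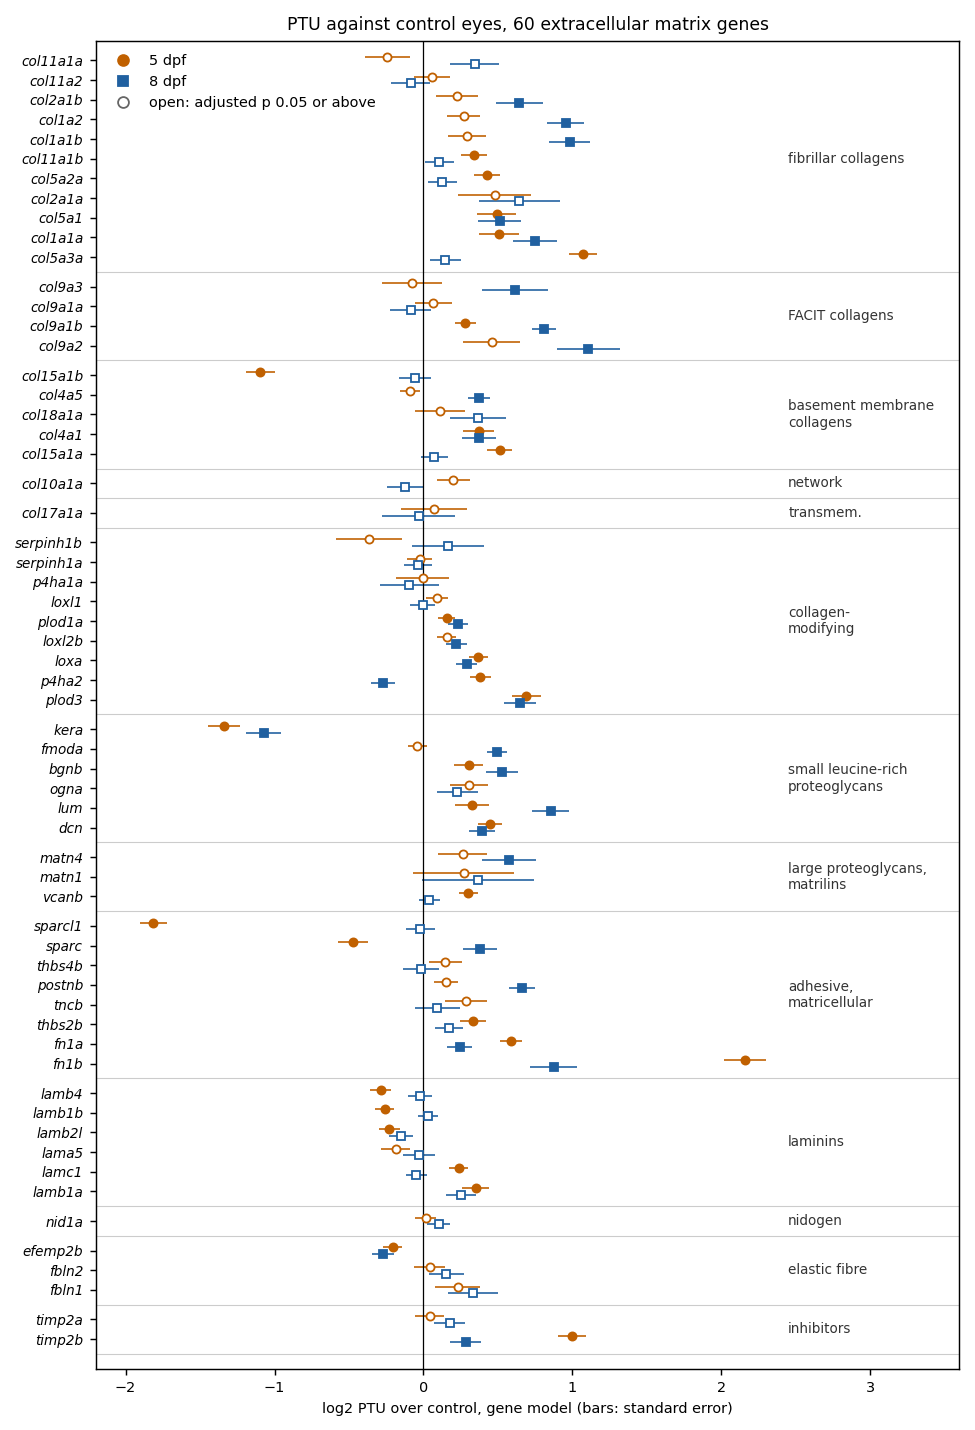
Log2 ratio of PTU over control eyes (horizontal axis) at 5 dpf (circles) and 8 dpf (squares) for the 60 members, grouped by role, with standard errors of the model as bars and filled symbols where the adjusted p was under 0.05. At 5 dpf the points of fn1b (2.16), sparcl1 (-1.81), kera (-1.34) and col15a1b (-1.09) lie furthest from 0, and at 8 dpf those of col9a2 (1.11) and kera (-1.07) do.

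Across both ages, 13 members rose at 5 and at 8 dpf, 8 rose at 5 dpf alone and 10 at 8 dpf alone. Another 5 fell at 5 dpf alone, 2 fell at both ages (kera and efemp2b), and 20 passed at neither age. How many of all genes followed each of these patterns was not counted. Whether such overlap between the ages is particular to the matrix genes was therefore not tested. A member that passed at 1 age alone was not thereby shown to differ between the ages, and that difference was tested separately: it was more positive at 8 dpf for 11 members (18.3%), against 11.9% of all genes, and more negative for 6 (10%), against 6.93%. The signs were opposite, with both calls, for sparc, which fell and then rose (at 8 dpf on 1 of its 2 probes), and for p4ha2, which rose and then fell.

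**Figure D3:**
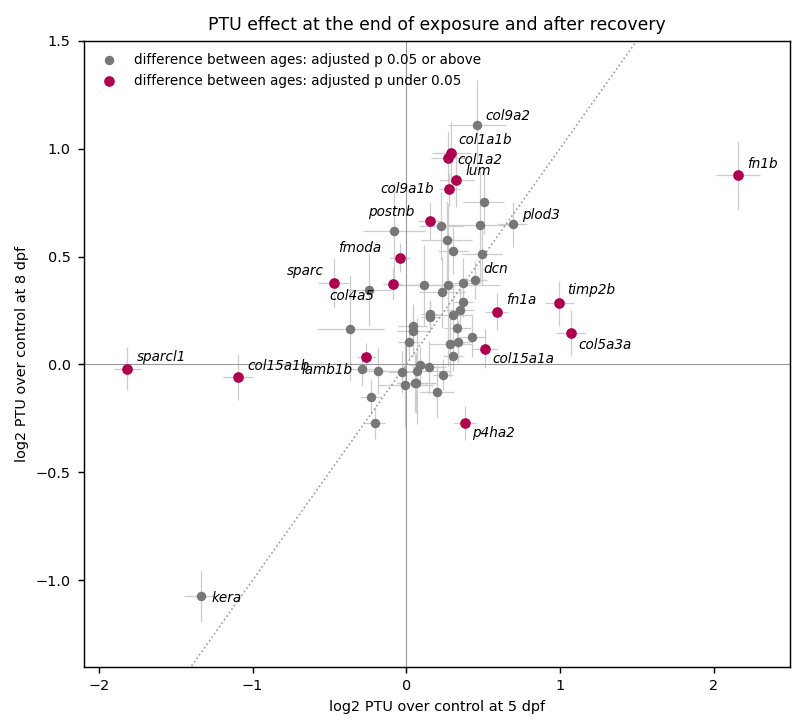
Log2 ratio of PTU over control at 5 dpf (horizontal axis) against 8 dpf (vertical axis) for the 60 members, with standard errors as bars and a dotted line of equal ratios. Members whose ratio differed between the ages are coloured, among them sparcl1 at -1.81 and -0.02 and fn1b at 2.16 and 0.88.

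Fibronectins are adhesive glycoproteins that link collagens to the integrins of cell surfaces, and of all 60 members the fibronectin gene fn1b had the highest ratio at 5 dpf. The level of fn1b was -0.48, 0.40 and 0.08 in the control extracts of 5 dpf (replicates 1, 2 and 3) and 2.24, 2.08 and 1.99 in the PTU extracts. At 8 dpf it was -0.22, -0.33 and -0.40 in control and 1.00, 0.27 and 0.26 in PTU eyes. The groups did not overlap at either age, although the ratio was smaller after recovery. It was 2.16 ± 0.14 at 5 dpf (adjusted p = 2.37e-08) and 0.88 ± 0.16 at 8 dpf (adjusted p = 0.000605), and the decrease of 1.28 had an adjusted p of 0.000971. On the arrays that carried a PTU and a control extract of the same age, fn1b was higher with PTU on 6 of 6 at 5 dpf and 4 of 4 at 8 dpf. Its 2 probes differed in size, with ratios of 3.07 and 1.29 at 5 dpf. At 8 dpf they were 1.56 and 0.20, and the second did not pass (adjusted p = 0.16), so that the rise after recovery rested on 1 probe. Here and below, a probe passed where its own adjusted p over all 16913 probes was under 0.05, with arrays taken as independent.

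The second fibronectin gene, fn1a, had levels of 0.03, -0.02 and -0.02 in control and 0.65, 0.76 and 0.35 in PTU extracts of 5 dpf, again without overlap, and a ratio of 0.59 ± 0.08 (adjusted p = 1.61e-05). At 8 dpf the PTU extracts stood at 0.44, 0.12 and 0.05 and overlapped with the control extracts at 0.06, 0.00 and -0.09. The ratio of 0.24 ± 0.08 had an adjusted p of 0.0373, which was lost when any of 8 extracts was left out, reaching 0.14 with an adjusted p of 0.30 without PTU replicate 1 of 8 dpf. The other 7 were control replicates 1 and 3 and PTU replicate 1 of 5 dpf, control replicates 1, 2 and 3 of 8 dpf and PTU replicate 2 of 8 dpf. Of its 2 probes at 8 dpf, 1 passed at 0.40 and the other was at 0.09 (adjusted p = 0.48).

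Sparcl1, a secreted relative of sparc found around neurons and vessels in other vertebrates, was the most clearly lowered matrix gene at 5 dpf. The control extracts of 5 dpf lay at 0.06, 0.06 and -0.12 and the PTU extracts at -1.79, -1.82 and -1.85, close together. At 8 dpf, control eyes were at -0.81, -0.63 and -0.98 and PTU eyes at -0.93, -0.78 and -0.80, so that these groups overlapped fully. The ratio was -1.81 ± 0.09 at 5 dpf (adjusted p = 1.53e-09), and by p it ranked 25 among 8446 genes. It was -0.02 ± 0.10 at 8 dpf (adjusted p = 0.91), and the difference of 1.79 ± 0.14 between the ages (adjusted p = 1.22e-06) held without any single extract. Between the ages, sparcl1 fell in control eyes by 0.79 (adjusted p = 0.00106, and 0.07 without control replicate 1 of 5 dpf, where the ratio was -0.81), while the mean of the PTU extracts went from -1.82 to -0.84. Both of its probes were past the study's thresholds at 5 dpf, at -1.67 and -1.96.

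Sparc itself, a collagen-binding glycoprotein, was lower with PTU at 5 dpf and higher at 8 dpf. Its levels of 5 dpf were 0.22, -0.01 and -0.21 in control and -0.45, -0.54 and -0.26 in PTU extracts, without overlap. At 8 dpf they were -0.97, -1.12 and -1.14 in control and -0.64, -0.97 and -0.52 in PTU extracts, where the lowest PTU value and the highest control value met. The ratio of -0.47 ± 0.10 at 5 dpf (adjusted p = 0.00142) missed the threshold without control replicate 1 of 5 dpf (-0.31, adjusted p = 0.083). The ratio of 0.38 ± 0.11 at 8 dpf (adjusted p = 0.0179) missed it without control replicate 2 or 3 or PTU replicate 1 or 3 of 8 dpf (0.25, adjusted p = 0.15 without PTU replicate 3). The difference between the ages, 0.85 ± 0.15 (adjusted p = 0.00156), held without each extract in turn. Its 2 probes gave -0.58 and -0.41 at 5 dpf, where both passed, and 0.06 (adjusted p = 0.78) and 0.70 at 8 dpf, so that the rise at 8 dpf rested on 1 probe.

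Among the other adhesive and matricellular genes, thbs2b, a thrombospondin, rose at 5 dpf by 0.33 ± 0.09 (adjusted p = 0.00486). This call was lost without control replicate 1 (0.35, adjusted p = 0.062) or without PTU replicate 1 of 5 dpf. The tenascin gene tncb (0.29 and 0.09 at 5 and 8 dpf) and thbs4b (0.15 and -0.01) passed at neither age. The periostin gene postnb is taken up below with the collagens.

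Among the small leucine-rich proteoglycans, which bind collagen fibrils and set their diameter and spacing, kera was lower with PTU at both ages while lum and dcn were higher. Keratocan, the product of kera, is a keratan sulfate proteoglycan made by keratocytes of the cornea. The levels of kera were -0.15, -0.05 and 0.20 in control and -1.31, -1.24 and -1.56 in PTU eyes at 5 dpf. After recovery they were 0.19, 0.14 and -0.35 in control and -1.06, -1.02 and -1.28 in PTU eyes. The groups lay apart at each age, and the PTU eyes of 8 dpf were still close to those of 5 dpf. The ratios were -1.34 ± 0.11 (adjusted p = 1.34e-07) and -1.07 ± 0.12 (adjusted p = 6.4e-06), and kera was lower on all 10 arrays that compared PTU with control eyes directly. The difference of 0.26 ± 0.16 between the ages did not pass (adjusted p = 0.28), nor did the change in control eyes (0.07, adjusted p = 0.82).

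Lumican, coded by lum, is another corneal keratan sulfate proteoglycan, and its gene did not move with kera. Its levels in control eyes of 5 dpf were 0.08, 0.24 and -0.32, in PTU eyes of 5 dpf 0.33, 0.58 and 0.16, in control eyes of 8 dpf -0.54, -0.54 and -0.77 and in PTU eyes of 8 dpf 0.59, -0.18 and 0.15. The groups overlapped at 5 dpf and lay apart at 8 dpf. The ratio was 0.85 ± 0.13 at 8 dpf (adjusted p = 0.000105), beside 0.33 ± 0.11 at 5 dpf (adjusted p = 0.0283, lost without control replicate 1 or 3 or PTU replicate 1 or 2 of 5 dpf, with 0.22 and an adjusted p of 0.22 without control replicate 3). The difference between the ages, 0.53 ± 0.17, had an adjusted p of 0.0418 that was lost without 10 of the 12 extracts (adjusted p = 0.17 at 0.49 without control replicate 1 of 5 dpf) and kept without control replicate 3 of 5 dpf or PTU replicate 2 of 8 dpf.

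Decorin, coded by dcn, was higher with PTU at both ages. Its levels were 0.13, 0.14 and -0.27 in control and 0.51, 0.58 and 0.30 in PTU eyes at 5 dpf, then -0.04, -0.29 and -0.14 in control and 0.36, 0.21 and 0.11 in PTU eyes. There was no overlap at either age. The ratios of 0.45 ± 0.08 (adjusted p = 0.000309) and 0.39 ± 0.09 (adjusted p = 0.00331) held without each extract in turn, and their difference of -0.05 ± 0.12 did not pass. The biglycan gene bgnb rose by 0.30 ± 0.10 at 5 dpf, a call lost without control replicate 1 or 2 or PTU replicate 1 or 2 (0.19, adjusted p = 0.26 without PTU replicate 1), and by 0.53 ± 0.11 at 8 dpf (adjusted p = 0.00166), where its probes gave 0.89 and 0.17 and the latter did not pass (adjusted p = 0.26). Osteoglycin, ogna, stood at 0.31 and 0.23 and passed at neither age. The fibromodulin gene fmoda passed at 8 dpf and not at 5 dpf. Its levels at 8 dpf were -0.75, -0.79 and -1.05 in control and -0.33, -0.48 and -0.36 in PTU eyes, a ratio of 0.50 ± 0.07 (adjusted p = 6.28e-05), against -0.04 ± 0.06 at 5 dpf, and the difference of 0.54 ± 0.09 had an adjusted p of 0.0013. Its 2 probes disagreed at 8 dpf, at 0.89 and 0.10 (adjusted p = 0.32 for the second), so that the call rested on 1 probe. In all, these 6 genes counted 3 rises and 1 fall at 5 dpf and 4 rises and 1 fall after recovery. The shares of all genes were 24.2% for rises and 22.8% for falls at 5 dpf, and 19.6% and 13.2% at 8 dpf.

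**Figure D4:**
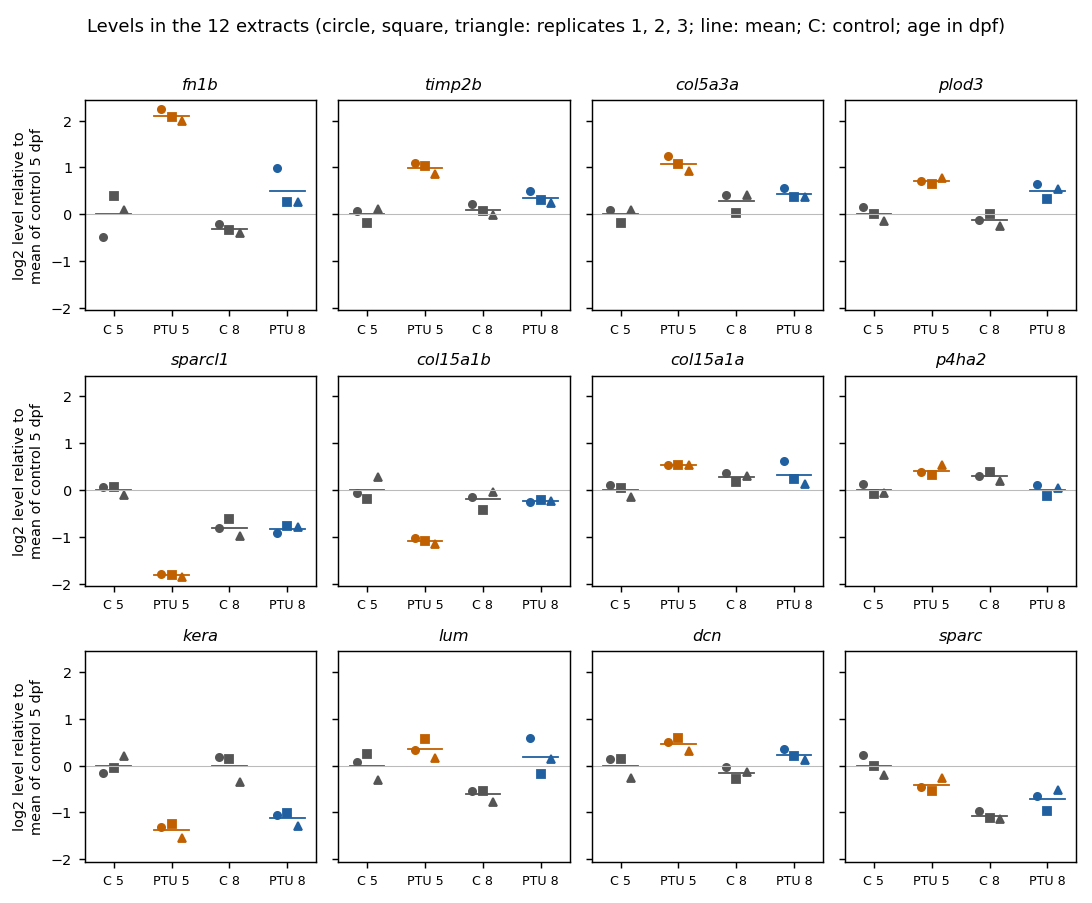
Log2 level relative to the mean of control 5 dpf (vertical axis) of 12 matrix genes in the 3 extracts of control (C) and PTU eyes at 5 and 8 dpf (horizontal axis), where circle, square and triangle are replicates 1, 2 and 3 and lines are means. PTU eyes lay apart from control eyes at both ages for fn1b, timp2b, plod3, p4ha2, kera and dcn, with p4ha2 above at 5 dpf and below at 8 dpf, and at 5 dpf only for sparcl1, col15a1b, col15a1a, col5a3a and sparc, and at 8 dpf only for lum.

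The fibrillar collagens are those whose triple helices form the load-bearing fibrils. With PTU, 5 of these 11 genes were higher at 5 dpf and 5 of 11 at 8 dpf, with medians of 0.34 and 0.51. Limma called 0 falls (0 also at an unadjusted p under 0.05). Among all genes the share of rises was 24.2% at the end of exposure and 19.6% after recovery. The share of falls was 22.8% and then 13.2%. Collagen I, the main fibril of cornea and sclera, is coded in zebrafish by col1a1a, col1a1b and col1a2. In control eyes all 3 genes were lower at 8 dpf than at 5 dpf, and their means in PTU eyes of 8 dpf lay between those of control eyes of the 2 ages. The level of col1a2 was 0.09, 0.29 and -0.37 in control and 0.18, 0.51 and 0.24 in PTU eyes of 5 dpf, and -1.34, -1.52 and -1.68 in control and -0.19, -0.88 and -0.78 in PTU eyes of 8 dpf. The extracts overlapped at 5 dpf and lay apart at 8 dpf, PTU replicate 1 being the highest.

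The ratios of PTU over control at 8 dpf were 0.95 ± 0.12 for col1a2 (adjusted p = 3.14e-05), 0.98 ± 0.14 for col1a1b (adjusted p = 7.64e-05) and 0.75 ± 0.15 for col1a1a (adjusted p = 0.00123), and each of these calls held without any single extract. At 5 dpf they were 0.27 ± 0.11, 0.29 ± 0.13 and 0.51 ± 0.13. Of these col1a1a alone passed the threshold (adjusted p = 0.00599), and it missed it without control replicate 3 of 5 dpf (0.30, adjusted p = 0.077). The probes of col1a1a gave 0.84 and 0.31 at 5 dpf, which passed, and 0.32, which did not (adjusted p = 0.11). The ratio differed between the ages for col1a2 by 0.68 ± 0.17 (adjusted p = 0.0106, and 0.08 at 0.66 without control replicate 1 of 5 dpf). For col1a1b the difference of 0.69 ± 0.19 (adjusted p = 0.0195) was lost without any of 7 extracts, namely control replicates 1 and 2 and PTU replicates 1 and 2 of 5 dpf, control replicate 3 and PTU replicates 1 and 3 of 8 dpf (0.61, adjusted p = 0.15 without control replicate 1 of 5 dpf). For col1a1a the difference was 0.25 ± 0.20 and did not pass.

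From 5 to 8 dpf in control eyes, the 3 collagen I genes fell, with log2 changes of -2.02 for col1a1b (adjusted p = 1.78e-05), -1.60 for col1a1a (adjusted p = 8.91e-05) and -1.59 for col1a2 (adjusted p = 2.6e-05). The call of col1a1a was lost without control replicate 1 of 5 dpf (-1.31, adjusted p = 0.064). Over all members, 19 fell (31.7%) and 1 rose (1.67%) in control eyes between these ages, against 7.04% and 4.66% of all genes, with a median of -0.24 beside -0.00. Without control replicate 1 of 5 dpf, which lay on 4 arrays, 5 members (8.33%) fell, and 1.03% of all genes did. Some marker lists of other cell types were lower at 8 dpf too: 4 of 5 red blood cell markers fell (median -1.33), as did 11 of 22 retina and lens markers (median -0.50). Of muscle markers 2 of 19 fell (median -0.59), and of epidermal and corneal epithelial markers 3 of 22 (median -0.34). Fibroblast and keratocyte markers counted 1 rise and 2 falls of 8 (median -0.17). Limma called 0 of 8 cartilage markers (median -0.16, with 2 lower at an unadjusted p under 0.05). Endothelial markers, with 0 rises and 1 fall of 11 (median 0.07), and bone markers, with 1 rise and 0 falls of 5 (median 0.11), were not lower as lists. The part of these cell types in the fall of the matrix genes was not tested. The calls that held without any single extract were those of col1a1b, col1a2, fmoda (-0.90), postnb (-0.98) and col4a5 (-0.70). Extracts of 5 and 8 dpf met only on 4 linking arrays, where the only extracts of 5 dpf were control and PTU replicate 1. All levels of 8 dpf relative to control 5 dpf thus run through these extracts and share the error of these arrays. The comparison in control eyes also uses the same control extracts as the PTU ratios, so the values are set side by side and not counted together. The member that rose in control eyes was efemp2b, an elastic fibre protein, by 0.66 ± 0.09 (adjusted p = 0.000328, and 0.12 at 0.52 without control replicate 1 of 5 dpf).

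Collagen V, which nucleates corneal fibrils, was represented by col5a1, col5a2a and col5a3a, and all 3 rose at 5 dpf. For col5a3a the control extracts of 5 dpf lay at 0.09, -0.18 and 0.09 and the PTU extracts at 1.25, 1.07 and 0.93, and at 8 dpf the control extracts lay at 0.42, 0.02 and 0.42 and the PTU extracts at 0.57, 0.36 and 0.37. The groups were well apart at the end of exposure and overlapped after recovery. The ratio was 1.07 ± 0.09 (adjusted p = 3.79e-07) and then 0.15 ± 0.10 (adjusted p = 0.32), and the decrease of 0.92 had an adjusted p of 0.000512. The ratios of col5a2a were 0.43 ± 0.09 (adjusted p = 0.00083) and 0.13 ± 0.10.

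The gene col5a1 had ratios of 0.49 ± 0.13 and 0.51 ± 0.14, and its extracts overlapped at both ages. Its call at 5 dpf was lost without control replicate 1 or 3 of 5 dpf (0.50, adjusted p = 0.079 without replicate 1). The call at 8 dpf was lost without control replicate 1 of 5 dpf, control replicate 2 of 8 dpf or PTU replicate 1 or 2 of 8 dpf (0.31, adjusted p = 0.17 without PTU replicate 1). Of its 4 probes, 1 did not pass at 5 dpf (0.51, adjusted p = 0.060). At 8 dpf another did not (0.12, adjusted p = 0.41), and the rest gave 0.73, 0.48 and 0.73 and passed.

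Collagens II, IX and XI with the matrilins are the matrix of cartilage and of the vitreous. Where 19.6% of all genes rose with PTU at 8 dpf, 5 of these 11 genes did, namely col2a1b, col9a1b, col9a2, col9a3 and matn4. The control extracts of 5 dpf differed widely from each other in several of them: matn1 was at 0.18, 1.29 and -1.46, col2a1a at 0.07, 0.88 and -0.95 and col9a2 at 0.17, 0.65 and -0.82. At 8 dpf the spread of the control extracts was smaller for these 3. For col9a2 the control extracts lay at -1.13, -1.06 and -1.19 and the PTU extracts at 0.04, -0.15 and 0.02, a ratio of 1.11 ± 0.21 (adjusted p = 0.00089) with 1.06 to 1.21 on the 4 direct arrays.

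The paralog col9a1b had levels of -0.05, -0.07 and 0.12 in control and 0.33, 0.15 and 0.36 in PTU eyes at 5 dpf, then -0.21, -0.14 and -0.24 in control and 0.77, 0.39 and 0.62 in PTU eyes at 8 dpf. The groups lay apart at both ages. Its ratio was 0.28 ± 0.07 (adjusted p = 0.00432, lost without control or PTU replicate 1 of 5 dpf, at 0.26 with an adjusted p of 0.11 without the control) and 0.81 ± 0.08 (adjusted p = 1.83e-06), a difference of 0.53 ± 0.11 (adjusted p = 0.00333, and 0.056 at 0.55 without control replicate 1 of 5 dpf). In contrast, col9a1a was at 0.07 and -0.09 and passed at neither age. The ratio of col9a3 at 8 dpf, 0.62 ± 0.22, had an adjusted p of 0.0463 and was lost without any of 8 extracts (0.60, adjusted p = 0.18 without control replicate 3 of 8 dpf). These were control replicate 1 and PTU replicate 2 of 5 dpf and all 6 extracts of 8 dpf. The matrilin gene matn4 was at 0.57 ± 0.18 at 8 dpf (adjusted p = 0.0257), lost without control replicate 2 or 3 or PTU replicate 1 or 3 of 8 dpf (0.34, adjusted p = 0.18 without PTU replicate 1).

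The ratio of col2a1b at 8 dpf was 0.64 ± 0.16 (adjusted p = 0.00576, and 0.057 at 0.54 without PTU replicate 1 of 8 dpf), and that of col2a1a, also 0.64, did not pass (adjusted p = 0.081). The probes of col2a1a differed at 8 dpf. They gave 0.97 and 0.95, which passed (adjusted p = 0.0259 and 0.0235), and 0.02, which did not (adjusted p = 0.94). The cartilage markers outside the rule did not follow: 0 of 8 rose or fell at 8 dpf by limma, with 0 higher and 2 lower at an unadjusted p under 0.05, and their median was -0.06. Of the collagen XI genes, col11a1b rose at 5 dpf (0.34, adjusted p = 0.00515, lost without control replicate 1 or 3 or PTU replicate 2 of 5 dpf, at 0.33 with an adjusted p of 0.065 without control replicate 1), and col11a1a (-0.24 and 0.34) and col11a2 (0.06 and -0.09) did not pass. Collagen X, col10a1a, a marker of hypertrophic cartilage and bone in fish, was at 0.20 and -0.13 and passed at neither age.

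The periostin gene postnb, coding for a matricellular protein of collagen-rich tissues, had group means in the same order as those of the collagen I genes. It was at 0.07, 0.20 and -0.26 in control and 0.16, 0.28 and 0.07 in PTU eyes of 5 dpf, and at -0.84, -0.80 and -1.12 in control and -0.07, -0.52 and -0.31 in PTU eyes of 8 dpf. The groups overlapped at 5 dpf (0.15 ± 0.08, adjusted p = 0.13) and lay apart at 8 dpf (0.66 ± 0.09, adjusted p = 3.58e-05). The difference of 0.51 ± 0.12 had an adjusted p of 0.00743, which rose to 0.064 at 0.49 without control replicate 1 of 5 dpf and was also lost without PTU replicate 1 of 5 dpf. Its 3 probes gave 1.06, 0.71 and 0.23 at 8 dpf.

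**Figure D5:**
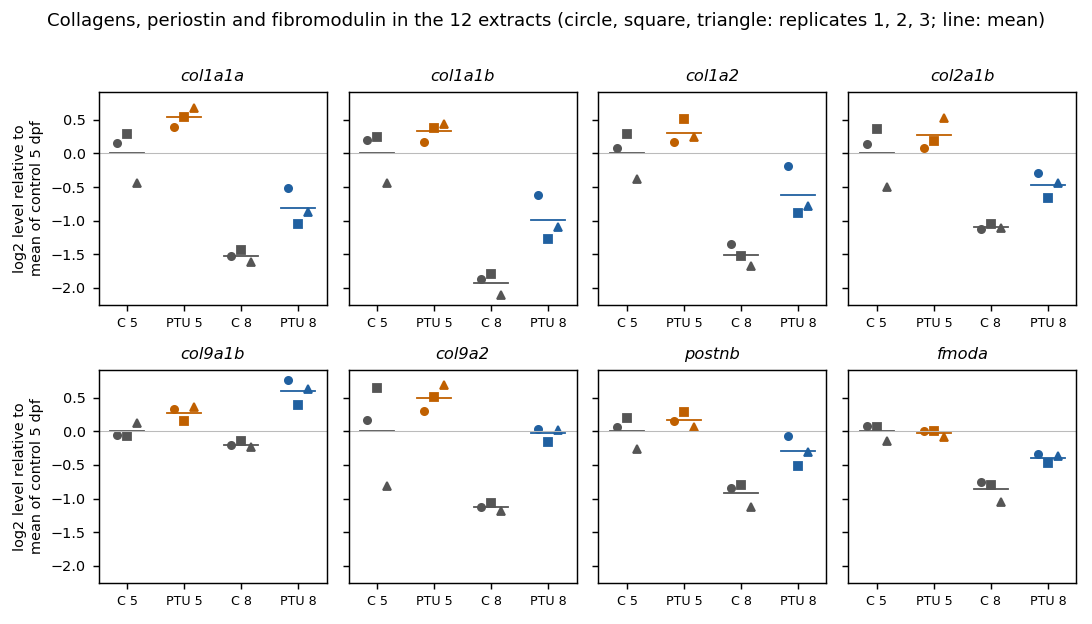
Log2 level relative to the mean of control 5 dpf (vertical axis) of 6 collagen genes, postnb and fmoda in the 3 extracts of control (C) and PTU eyes at 5 and 8 dpf (horizontal axis), where circle, square and triangle are replicates 1, 2 and 3 and lines are means. At 8 dpf all PTU extracts lay above all control extracts in the 8 panels, and PTU replicate 1 was the highest PTU extract in each of them.

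The basement membrane collagens showed the 2 zebrafish copies of collagen XV moving in opposite directions at 5 dpf. Collagen XV lies at the outer face of basement membranes of muscle and vessels. The level of col15a1b was -0.06, -0.20 and 0.27 in control and -1.04, -1.08 and -1.16 in PTU eyes of 5 dpf, and that of col15a1a 0.11, 0.03 and -0.14 in control and 0.53, 0.53 and 0.53 in PTU eyes. Neither pair of groups overlapped, and within the PTU group both genes were nearly constant.

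The ratio of col15a1b was -1.09 ± 0.10 (adjusted p = 3.67e-07) at 5 dpf and -0.06 ± 0.11 at 8 dpf, a difference of 1.04 ± 0.14 (adjusted p = 0.000245) that held without any single extract. The ratio of col15a1a was 0.51 ± 0.08 (adjusted p = 0.000111) and 0.07 ± 0.09. Its decrease of 0.44 had an adjusted p of 0.0208, lost without control replicate 1 or 3 or PTU replicate 1 of 5 dpf, control replicate 3 or PTU replicate 2 or 3 of 8 dpf (-0.40, adjusted p = 0.15 without PTU replicate 1 of 5 dpf). At 8 dpf the PTU extracts overlapped the control extracts in both genes. Each copy was measured with 1 probe, and hybridisation of a probe to the other copy was not tested.

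Collagen IV forms the sheet of every basement membrane. Its gene col4a1 rose by 0.37 ± 0.10 at 5 dpf, a call lost without control replicate 1 or 3 of 5 dpf (0.37, adjusted p = 0.11 without replicate 1), and by 0.38 ± 0.11 at 8 dpf. The latter was lost without control replicate 1 of 5 dpf, control replicate 2 of 8 dpf or PTU replicate 1 or 2 of 8 dpf (0.16, adjusted p = 0.22 without PTU replicate 1). A second gene, col4a5, was at -0.09 at 5 dpf and rose by 0.37 ± 0.07 at 8 dpf (adjusted p = 0.00101). Its ratio differed between the ages by 0.46 (adjusted p = 0.00445, and 0.054 at 0.44 without control replicate 1 of 5 dpf). Its 3 probes gave unequal ratios, at 0.17, -0.09 and -0.36 at 5 dpf and -0.12, 0.29 and 0.96 at 8 dpf. Only the third passed, as lower at 5 dpf (adjusted p = 0.00159) and as higher at 8 dpf (adjusted p = 2.11e-06). The rise at 8 dpf thus rested on 1 probe. The gene of collagen XVIII, col18a1a, was at 0.11 and 0.37 and passed at neither age.

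Laminins, the cross-shaped trimers of basement membranes, changed little and in both directions at 5 dpf: 2 of 6 rose and 3 fell, by at most 0.35 on the log2 scale. At that age 24.2% of all genes rose and 22.8% fell. The beta chain genes lamb4 (-0.29), lamb1b (-0.26) and lamb2l (-0.23) fell, and lamb1a (0.35) and the gamma chain gene lamc1 (0.24) rose. For lamb1b the extracts were at -0.01, 0.13 and -0.12 in control and -0.24, -0.28 and -0.31 in PTU eyes, without overlap, and its call (adjusted p = 0.00289) held without each extract. The other calls did not. That of lamb4 was lost without control replicate 1 (-0.31, adjusted p = 0.066), that of lamb2l without any control extract or PTU replicate 1 of 5 dpf (-0.20, adjusted p = 0.12 without the last), that of lamb1a without control replicate 3 or PTU replicate 1 (0.32, adjusted p = 0.069 without the last) and that of lamc1 without control replicate 1 or PTU replicate 1 or 2 (0.21, adjusted p = 0.12 without the first). At 8 dpf limma called 0 of the 6 laminins, with 1 higher at an unadjusted p under 0.05, and the change of lamb1b between the ages, 0.29 ± 0.09, had an adjusted p of 0.0383 that was lost without 10 of the 12 extracts, all but control replicate 3 of 5 dpf and control replicate 2 of 8 dpf (0.31, adjusted p = 0.15 without PTU replicate 1 of 5 dpf). The nidogen gene nid1a, whose protein ties laminin to collagen IV, was at 0.02 and 0.10 and passed at neither age.

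Collagens are hydroxylated, folded and cross-linked by the enzymes of the next group, of which 4 of 9 rose at 5 dpf, with 4 rises and 1 fall after recovery. Rises made up 24.2% of all genes at the earlier age. At the later age rises made up 19.6% and falls 13.2%. The lysyl hydroxylase gene plod3 lay at 0.14, -0.01 and -0.14 in control and 0.71, 0.64 and 0.78 in PTU eyes of 5 dpf, and at -0.13, 0.00 and -0.25 in control and 0.64, 0.33 and 0.53 in PTU eyes of 8 dpf. The groups lay apart at both ages, by 0.69 ± 0.10 (adjusted p = 3.02e-05) and 0.65 ± 0.11 (adjusted p = 0.000258), and the difference of -0.04 ± 0.14 did not pass. The lysyl oxidase gene loxa, which cross-links collagen and elastin, rose by 0.37 ± 0.06 (adjusted p = 0.000258) and 0.29 ± 0.07 (adjusted p = 0.00607), the second call being lost without control replicate 1 of 5 dpf or PTU replicate 1 of 8 dpf (0.21, adjusted p = 0.065 without the latter).

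The prolyl hydroxylase subunit gene p4ha2 reversed its sign with recovery. It was at 0.13, -0.08 and -0.06 in control and 0.38, 0.31 and 0.52 in PTU eyes of 5 dpf, and at 0.31, 0.38 and 0.19 in control and 0.10, -0.13 and 0.05 in PTU eyes of 8 dpf. The groups lay apart at both ages, in opposite order. The ratio was 0.38 ± 0.07 (adjusted p = 0.000412) and then -0.27 ± 0.08 (adjusted p = 0.0154, lost without control replicate 1 of 5 dpf, control replicate 1 of 8 dpf or PTU replicate 2 of 8 dpf, where it was -0.21 with an adjusted p of 0.11), and the decrease of 0.65 (adjusted p = 0.000782) held without any single extract. Both probes of p4ha2 had the same signs as the mean at each age. The collagen chaperone genes serpinh1a (-0.03 and -0.04) and serpinh1b (-0.37 and 0.17), p4ha1a (-0.01 and -0.09) and loxl1 (0.09 and -0.00) passed at neither age.

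The remaining calls of this group were small, and those of plod1a rested on 1 of its 2 probes at each age. The ratios of plod1a, another lysyl hydroxylase gene, were 0.16 (adjusted p = 0.042) and 0.23 (adjusted p = 0.0139), and that of the lysyl oxidase-like gene loxl2b at 8 dpf was 0.22 (adjusted p = 0.0255). The first was lost without control replicate 1 or 3 or any PTU replicate of 5 dpf, or control replicate 1 or PTU replicate 2 of 8 dpf (0.10, adjusted p = 0.26 without control replicate 3 of 5 dpf). The second was lost without control replicate 1 of 5 dpf, control replicate 3 or PTU replicate 1 or 3 of 8 dpf (adjusted p = 0.079 at 0.23 without the first of these). The call of loxl2b was lost without control or PTU replicate 1 of 5 dpf, control replicate 1 or 3 or PTU replicate 1 or 2 of 8 dpf (0.14, adjusted p = 0.19 without PTU replicate 1 of 8 dpf).

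Of the inhibitors of matrix metalloproteinases, timp2b rose with PTU at 5 dpf and its paralog timp2a was at 0.04 and 0.18 and passed at neither age. The extracts of timp2b were at 0.07, -0.18 and 0.11 in control and 1.1, 1.02 and 0.87 in PTU eyes of 5 dpf, and at 0.22, 0.08 and -0.02 in control and 0.50, 0.31 and 0.25 in PTU eyes of 8 dpf. No extract of the groups overlapped at either age. The ratio was 1.00 ± 0.09 (adjusted p = 7.17e-07) and 0.28 ± 0.10. The latter had an adjusted p of 0.0489, which was lost without control replicate 1 or 3 of 5 dpf or any extract of 8 dpf (0.24, adjusted p = 0.18 without PTU replicate 1 of 8 dpf). The decrease of 0.71 (adjusted p = 0.00308) reached 0.59 with an adjusted p of 0.051 without PTU replicate 1 of 5 dpf. The 2 probes of timp2b gave 1.48 and 0.51 at 5 dpf, where both passed, and 0.46 and 0.11 at 8 dpf, where the second did not (adjusted p = 0.20).

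Among the elastic fibre proteins and large proteoglycans, changes were small. The fibulin-family gene efemp2b fell at both ages, by 0.21 and 0.27, and was lower on all 10 direct arrays. Its call at 5 dpf was lost without control replicate 2 or 3 or PTU replicate 1 or 2 (-0.15, adjusted p = 0.13 without control replicate 2), and its call at 8 dpf without control replicate 3 (-0.24, adjusted p = 0.077) or PTU replicate 1 of 8 dpf. Of the 2 probes of efemp2b, 1 passed at 5 dpf (-0.26) and the other did not (-0.13, adjusted p = 0.053), and both passed at 8 dpf. The versican gene vcanb, a hyaluronan-binding proteoglycan, rose at 5 dpf by 0.30 ± 0.06 (adjusted p = 0.00133), without overlap between control extracts at 0.02, 0.16 and -0.19 and PTU extracts at 0.27, 0.33 and 0.36, and was at 0.04 at 8 dpf. The hemidesmosome collagen gene col17a1a was at 0.07 and -0.03 and passed at neither age, nor did fbln1 (0.23 and 0.33) and fbln2 (0.04 and 0.15).

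Genes that act on this matrix but lie outside the symbol rule were counted from lists. Of 40 genes listed as matrix proteases 10 were measured. Among these, pcolce2b codes for an enhancer of the procollagen C-proteinase and not for a protease, and it rose at both ages (0.49 and 0.38). With pcolce2b counted, 9 rose and 1 fell at 5 dpf, while 8 rose and 0 fell by limma at 8 dpf (0 also at an unadjusted p under 0.05). The medians were 0.89 and 0.78. At 5 dpf 24.2% of all genes rose and 22.8% fell, and at 8 dpf 19.6% rose and 13.2% fell. The gelatinase gene mmp9 rose by 2.49 ± 0.13 and 1.78 ± 0.15, and the collagenase gene mmp13a by 2.21 ± 0.20 and 0.89 ± 0.22. The collagen-degrading cathepsin gene ctsk rose by 2.09 and 1.37, mmp2 by 0.84 and 1.13 and mmp14b, a membrane-bound collagenase, by 1.11 and 1.51. Of the 2 copies of the procollagen C-proteinase, bmp1a rose by 0.95 at 5 dpf (adjusted p = 1.5e-06), when bmp1b fell by 0.26 (adjusted p = 0.00373), and they stood at 0.22 each at 8 dpf, where bmp1b alone passed (adjusted p = 0.024).

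Of 24 listed genes of procollagen folding and export, 9 were measured, of which 6 rose at 5 dpf and 4 at 8 dpf, and none fell, with 0 and 1 lower at an unadjusted p under 0.05. Examples are the disulfide isomerases p4hb (0.48 and 0.41) and pdia4 (0.82 and 0.73), the cyclophilin ppib (0.76 at both ages) and the export coat gene sec23b, which rose by 0.74 at 5 dpf and was at 0.22 at 8 dpf. Of 16 measured genes of TGF-beta signalling, which drives matrix synthesis, 4 were higher and 4 lower past the test at 5 dpf, and 4 higher and 2 lower at 8 dpf. These counts are near the shares of all genes, 24.2% higher and 22.8% lower at 5 dpf and 19.6% and 13.2% at 8 dpf. The genes that passed included tgfbi, a secreted corneal matrix protein (0.89 and 1.38, both rises), smad3a (-0.60 and -0.45, both falls) and the connective tissue growth factor copies ccn2a (-0.51 and -0.25, of which only the first passed) and ccn2b (0.27 and 0.71, both rises). Of 13 measured integrins and other matrix receptors 5 rose and 2 fell at 5 dpf, and 1 rose (sdc4, 0.27) and 1 fell (itga6a, -0.48) at 8 dpf.

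Markers of the cells that could carry these genes moved in different ways. Their counts stand beside 24.2% of all genes that rose and 22.8% that fell at 5 dpf, and 19.6% and 13.2% at 8 dpf. Of 8 fibroblast and keratocyte markers, 3 rose and 0 fell by limma at 5 dpf (0 also at an unadjusted p under 0.05) and 5 rose and 2 fell at 8 dpf. The highest ratios were those of angptl7, a gene of corneal stroma, at 0.70 and 0.82. The 2 that fell at 8 dpf were prrx1a (0.18 and -0.32) and cygb1 (-0.13 and -0.21). The mean over the 8 markers ranged from -0.22 to 0.14 in control and from 0.17 to 0.26 in PTU extracts of 5 dpf, and from -0.23 to -0.04 and from 0.06 to 0.30 at 8 dpf. Of 11 endothelial markers 1 fell at 5 dpf and 1 rose at 8 dpf (cldn5b, by 0.93), and kdrl and cdh5, which define endothelium, were between -0.12 and 0.02 at both ages.

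Of 19 muscle markers, 4 rose at 5 dpf and 0 changed by limma at 8 dpf (0 also at an unadjusted p under 0.05), and 1 of 5 bone markers was up and 1 down at each age. Of all genes, 24.2% rose and 22.8% fell at 5 dpf, and 19.6% and 13.2% at 8 dpf. No list was tested against these shares. Of 22 epidermal and corneal epithelial markers 3 rose and 9 fell at 5 dpf, followed by 3 rises and 7 falls at 8 dpf, among them the keratin gene krt5 (-0.91 and -0.55, both falls) and, in the other direction, the cadherin gene cdh1 (1.77 and 1.62) and the claudin gene cldni (0.55 and 0.51), which rose at both ages, and of 5 red blood cell markers 1 rose and 1 fell at 5 dpf. Markers of retina and lens, which fill most of the larval eye, fell for 16 and rose for 1 of 22 genes at 5 dpf with a median of -1.21, and 5 rose and 10 fell at 8 dpf with a median of 0.01. The part of a changed share of these tissues in the matrix ratios was not tested.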

How the data were processed

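Eyes of zebrafish larvae exposed to PTU and of control larvae were compared on 14 two-colour arrays. The deposited log2 ratios (Cy5 over Cy3) were made by the authors with GenePix Pro, normexp background correction and loess normalization in limma 3.34.4, leaving out spots near background on all arrays. Direction and base follow the methods and dye labels, since the table states neither. The arrays of 6 direct pairs at 5 dpf, 4 at 8 dpf and 4 links cover 12 extracts, of which 2 lay on 4 arrays and 10 on 2. Array medians lay between -0.0116 and -0.00113. Precision depends on how many arrays there were, and signal over background is unknown here because only ratios were used.

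RefSeq accession or symbol placed 13708 of 16913 probes in 8446 genes (GRCz12tu). Of the 99 member probes, 77 matched by accession, 21 by current and 1 by older symbol. Probes of a gene were averaged. The model was fitted by generalized least squares, with extracts as random effects (variance ratio of extract to array 0.138 for all genes, by restricted maximum likelihood), with moderated tests in limma 3.58.1 (R 4.3.3), 11 residual degrees of freedom and Benjamini-Hochberg adjustment over all genes. For genes whose extracts vary more than this common ratio, the standard errors are too small. Single transcripts were tested with arrays as independent. Levels were least-squares estimates for each extract from its arrays. Each extract is a pool of eyes numbered as a replicate, and nothing else says how independent the pools were. The p-values of genes rest on the spread of the arrays about the model, where the spread between extracts enters only through the common ratio. For single transcripts it does not enter at all. The p-values do not reach beyond these extracts. The steps were tested on simulated data.

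The members, lists, tests and alternatives were chosen with earlier results of these data known. Named were, per age, the 8 members with the largest rises and the 8 with the largest falls among those called, the 5 with the smallest p per direction for the difference between ages and for control eyes, the member with the smallest p in each role, and a set of well-known matrix genes. The remaining members are named to account for all of them, after their values were seen. The alternatives were other centring and scaling, a dye effect, independent arrays, levels per extract, direct arrays only, a replicate block, robust moderation, the most variable probe per gene, a log2 ratio over 0.75, and leaving out each extract or 1 array. No sequences were used here. Plots used matplotlib 3.10.9 under Python 3.11.15.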

Additional observations from a re-analysis of the deposited data

Results flagged for a closer look

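For 16 of the named matrix genes the ratio of PTU over control differed between 8 and 5 dpf by limma, the difference itself being tested with adjustment over all genes and a threshold of 0.05. The value given is the log2 ratio at 8 dpf minus that at 5 dpf. It was positive for sparcl1 (1.79), col15a1b (1.04), sparc (0.85), col1a1b (0.69), col1a2 (0.68), fmoda (0.54), col9a1b (0.53), lum (0.53), postnb (0.51) and lamb1b (0.29). For sparcl1, col15a1b and lamb1b the ratio was below 0 at 5 dpf and near 0 at 8 dpf, for sparc it went from below to above 0, and for the other 6 it was larger at 8 dpf than at 5 dpf. Of the 17 members called for this difference, col4a5 (0.46) is not among the 16, because it was named neither by rank nor as well known.

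The difference was negative for fn1b (-1.28), col5a3a (-0.92), timp2b (-0.71), p4ha2 (-0.65), col15a1a (-0.44) and fn1a (-0.34). These 6 genes had risen at 5 dpf, and at 8 dpf the ratio was smaller or, for p4ha2, below 0. Those of sparcl1, col15a1b, col5a3a, p4ha2, fn1b, fmoda and sparc kept the call without each extract in turn, and the other 9 lost it without 1 or more extracts. For fn1a it was lost without 9 of the 12 extracts, all but PTU replicate 3 of 5 dpf, control replicate 2 and PTU replicate 1 of 8 dpf (-0.27, adjusted p = 0.29 without PTU replicate 1 of 5 dpf).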

How the results depend on the processing

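Single-gene results of the 36 named members were repeated 3096 times under the alternatives other than a log2 ratio over 0.75. Of these repeats, 2872 kept direction and side of the threshold, 174 were no longer past it, 50 newly passed it and 0 turned a called direction. Results that were not past the threshold and stayed so are among those kept, so the total does not measure how many calls held. With least-squares levels per extract, 13 members (21.7%) rose and 5 (8.33%) fell at 5 dpf, where 17.6% and 16.2% of all genes did, 14 (23.3%) rose at 8 dpf, where 13.9% of all genes did, and 4 (6.67%) were more positive at 8 than at 5 dpf, against 5.23%, and the cause was not tested. With a log2 ratio over 0.75 also required, 3 rose and 3 fell at 5 dpf, 7 rose and 1 fell at 8 dpf, the difference of the ages was more positive for 3 and more negative for 2, and 0 rose in control eyes, where 1 passed limma without that requirement. The share of all genes past that requirement is not given here. Without the array of control replicate 2 and PTU replicate 1 of 8 dpf, the one with the largest residual SD (0.346), 11 members (18.3%) were more negative at 8 dpf, beside 12% of all genes. With all arrays these shares were 10% and 6.93%. The cause of that last change was not tested.

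Leaving out 1 extract at a time gave 13 to 30 rises and 5 to 9 falls at 5 dpf, 13 to 26 rises and 2 to 4 falls at 8 dpf, 4 to 15 more positive and 3 to 10 more negative differences, and 0 to 1 rises and 5 to 23 falls in control eyes. The shares of all genes moved too. Rises ranged from 15.6% to 27.9% at 5 dpf and from 13% to 21.4% at 8 dpf, and falls from 14.9% to 26.8% and from 8.57% to 15.2%. More positive differences ranged from 4.72% to 17.6%, more negative ones from 2.05% to 11.3%, and falls in control eyes from 1.03% to 10.8%. The lowest counts at 5 dpf and in control eyes came without control replicate 1 of 5 dpf, and the lowest count of rises at 8 dpf without PTU replicate 1 of 8 dpf. Leaving out control or PTU replicate 1 of 5 dpf removed 4 of the 14 arrays each. A call lost without either can thus reflect fewer arrays as well as a changed ratio, and the 2 were not told apart. Of the calls, 15 of 30 at 5 dpf, 14 of 27 at 8 dpf, 7 of 17 differences and 5 of 20 in control eyes were kept without each extract. With an arm of 2 extracts the spread was pooled over the groups.

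With the replicate number as a replicate block, 21 rose and 8 fell at 5 dpf (22.6% and 21.1% of all genes), and 19 rose and 3 fell at 8 dpf (17.2% and 11.5% of all genes). In that setting 9 differences were more positive and 5 more negative (10% and 5.59% of all genes), and 1 rose and 17 fell in control eyes (3.11% and 4.9% of all genes). The labels give no source for the numbers, and deviations of the 18 pairs of extracts with the same number correlated at -0.23 to 0.63, so the extracts were not taken as paired. The median over all genes lay between -0.02 and 0.03 in every comparison and setting.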
